A study of Drosophila melanogaster with 56 samples.

Results

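The 8 genes described here belong to the pathway that tans and colours the insect cuticle: Pu (Punch), Hn (Henna), ple (pale), Ddc (Dopa decarboxylase), b (black), e (ebony), y (yellow) and stw (straw, which encodes laccase2). They were picked by FlyBase gene ID as a pathway, by a rule that uses no measured value but with earlier results of these data known, and all 8 were found among the 17558 gene rows of the count tables. RNA-Seq was performed on whole Drosophila melanogaster embryos of the wild-type strain Oregon R, which carried no engineered allele and received no treatment in any group. Embryos were collected every hour up to 6 h after egg-laying, starting at 0 h, and then every 2 h up to 20 h, with 4 replicate libraries at each of the 14 time points and 56 libraries in all. Each library held RNA from a pool of embryos, so that a value is an average over every tissue of many animals.

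Insect cuticle is laid down soft and pale and is then hardened and coloured by cross-linking with oxidised catecholamines. Phenylalanine is converted into tyrosine, tyrosine into dopa and dopa into dopamine, and the hydroxylases of this route depend on the cofactor tetrahydrobiopterin. Dopamine can be coupled to beta-alanine, which yields a tan sclerotin, or enter black melanin, and secreted laccase oxidises the catechols to the quinones that cross-link the cuticle proteins. In the late embryo the larval cuticle, mouth hooks and denticles are tanned in this way before hatching, while the early enzymes of the route also serve dopaminergic neurons and, in the case of Pu, pteridine synthesis.

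The members map to the BDGP6 genome as single genes. Pu (FBgn0003162) lies at 2R:21175315-21182608 on the forward strand, Hn (FBgn0001208) at 3L:7760453-7763166 on the forward strand, and ple (FBgn0005626) at 3L:6713356-6719525 on the reverse strand. Ddc (FBgn0000422) lies at 2L:19116483-19120306 on the reverse strand, b (FBgn0000153) at 2L:13821248-13823979 on the forward strand, and e (FBgn0000527) at 3R:21229839-21237177 on the reverse strand. The gene y (FBgn0004034) occupies X:356509-361245 on the forward strand and stw (FBgn0259247) occupies 2R:5413744-5456095 on the forward strand. Ddc alone of the 8 shares exonic bases with another gene, 88 of its 2797 bp with CG10561 on the opposite strand, and as the strand setting of the counting is not given in the sources used here, reads from those bases may come from either gene. Levels are given as RPKM, read counts scaled to the exon length of the gene and to the total counts of the library, so that they can be compared between genes. For stw the exon length is that of the current gene model, which carries a newer identifier than the count tables.

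Total counts on genes ranged from 13422473 to 22536043 per library with a median of 16709769, at which 3 counts correspond to between 0.0344 RPKM for stw and 0.11 RPKM for y in the least favourable library. A sample below these values cannot be told from zero. Libraries of 1 time point had Spearman correlations of 0.939 to 0.997 across 11065 genes at the 13 time points before 20 h. At 20 h, replicates 1 and 2 correlated at 0.979 and replicates 3 and 4 at 0.996, but between these pairs the correlation was only 0.877 to 0.938, and at 18 h replicate 4 correlated with the others at 0.939 to 0.975. At 3 h, replicates 1 and 2 correlated at 0.982, replicates 3 and 4 at 0.989, and the libraries of different pairs at 0.943 to 0.965. In addition, 0 h replicates 1 to 3 held more neuron marker mRNA than replicate 4. The summed level of 5 markers was 67.5, 45.6 and 84.9 CPM (counts scaled to library size only), against 4.68 CPM in 0 h replicate 4. The source of this mRNA was not tested. Results that rest on these libraries are given with and without them.

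**Figure D1:**
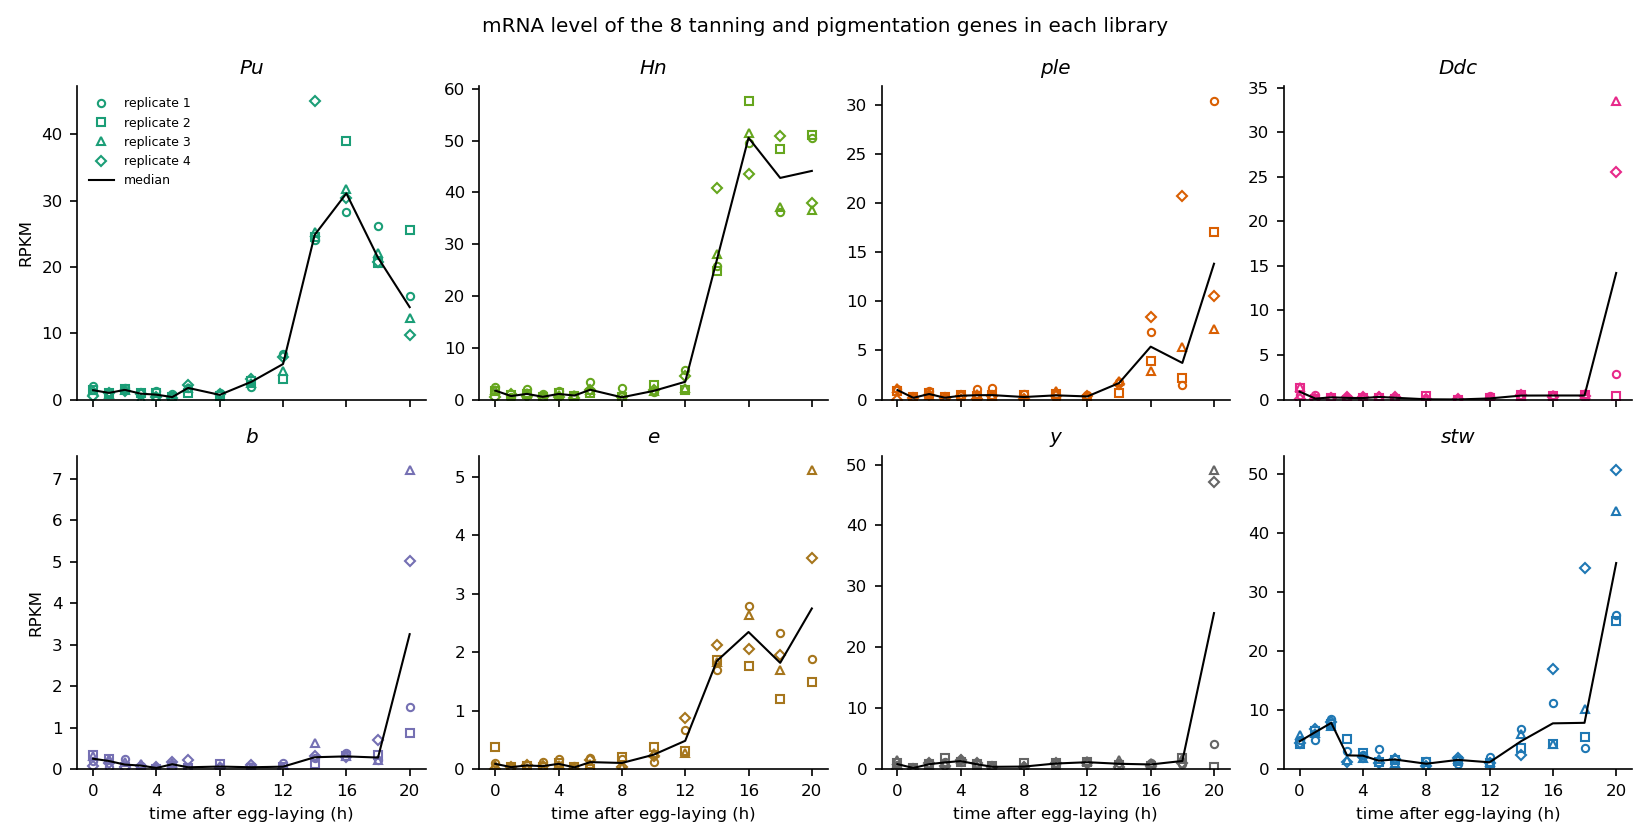
RPKM of each of the 8 genes (y axis, linear, its own scale in each panel) against time after egg-laying in hours (x axis); each symbol is a library, with 4 replicates per time point, and the line joins the medians. Pu and Hn have their highest median at 16 h and the other 6 genes at 20 h, where Ddc, b and y are far higher in replicates 3 and 4 than in replicates 1 and 2. With a replicate left out, the highest median of Hn and of e lay at 16 to 20 h.

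All 8 genes were higher at 20 h than at 6 h. The changes were tested with edgeR's quasi-likelihood test over all 56 libraries, and a gene was called where the Benjamini-Hochberg adjusted p over the 11065 genes tested was under 0.05 and the log2 fold change at least 1 in either direction. In 20 against 6 h, 36.2% of all genes tested were called higher. The log2 fold changes of the members lay between 3.13 for Pu and 6.21 for Ddc, with a median of 4.66, against a median of 0.05 over all genes, and the edgeR adjusted p between 3e-10 for Hn and 1.15e-06 for ple. For y, 20 h replicate 2, at 0.414 RPKM, lay within the 6 h range of 0.346 to 0.485 RPKM. The 20 h and 6 h libraries of the other members did not overlap. The share of all genes without overlap was not counted, so this is not read as a result about the members. In bulk samples, a larger number of expressing cells and more mRNA per cell cannot be told apart. The 20 h calls of all 8 members were kept without 20 h replicates 3 and 4, an alternative chosen, like those without 20 h replicates 1 and 2, 18 h replicate 4 or either pair of 3 h libraries, after the data had been seen, although Ddc and y then had log2 fold changes of 2.92 and 2.47, against 6.21 and 6.04 with all libraries.

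The rise was not simultaneous, and over the 13 steps between neighbouring time points the steps with the most members called were 14 against 12 h and 20 against 18 h. Of 104 tests, 8 members at 13 steps, 23 were called. Of these, 6 were at the step to 14 h, 4 at the step to 20 h and the other 13 at steps up to 10 h. Of all genes tested, 17.9% and 17.2% were called higher at the steps to 14 h and 20 h. At the earlier steps with member calls, 2.85% to 24.5% of all genes were called in the direction of the members. At 4 against 3 h and 18 against 16 h no member was called by edgeR or DESeq2, and none had an unadjusted edgeR p under 0.05, where 1.81% and 0.398% of all genes were called in either direction. At 5 against 4 h, 12 against 10 h and 16 against 14 h no member was called by edgeR or DESeq2 on all libraries either. Here 1 (Pu), 2 (Pu and Ddc) and 1 (ple) had an unadjusted edgeR p under 0.05, where 3.71%, 0.578% and 2.17% of all genes were called. With only the 8 libraries of the compared time points, edgeR called Pu higher at 12 h (log2 fold change 1.02, adjusted p = 0.0257). It also called ple higher at 16 h (1.78, adjusted p = 0.0135). In these fits 249 of 9114 and 521 of 9956 genes tested were called higher.

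**Figure D2:**
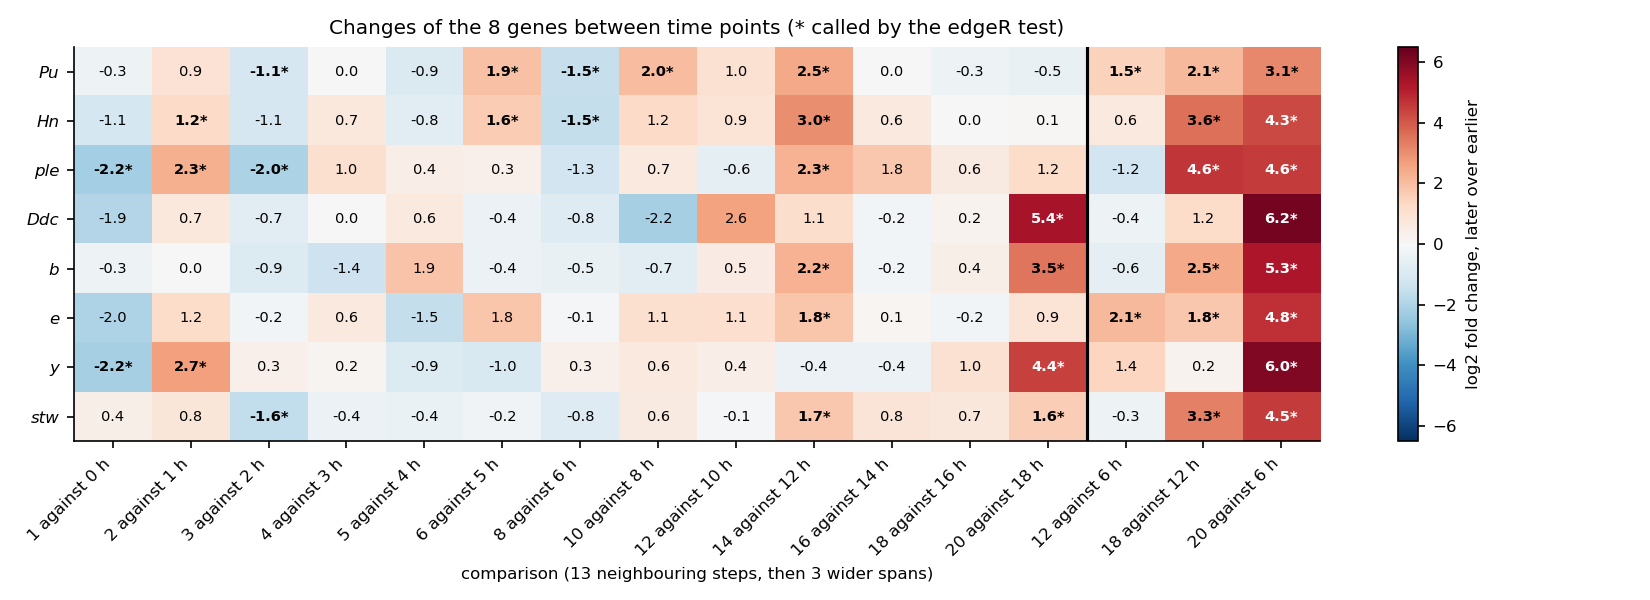
log2 fold change, later over earlier time point, of each gene (rows) in the 13 neighbouring steps and, right of the black line, 3 wider spans (columns); red is higher and blue lower at the later time, and an asterisk and bold type mark an edgeR call. Called higher are 6 genes at 14 against 12 h, 4 at 20 against 18 h and all 8 in 20 against 6 h. Of all genes tested, 17.9%, 17.2% and 36.2% were called higher there.

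Pu encodes GTP cyclohydrolase, which starts the synthesis of tetrahydrobiopterin. At 14 h its level was 24.1, 24.5, 25.2 and 45.03 RPKM in replicates 1 to 4, against 6.91, 3.15, 4.23 and 6.47 RPKM at 12 h. Every 14 h library was above every 12 h library, a 5.5-fold difference (log2 fold change 2.46, standard error 0.38, edgeR adjusted p = 1.47e-06). Pu then stood at 28.3, 38.9, 31.8 and 30.4 RPKM at 16 h, its highest time point, and at 26.2, 20.6, 22.1 and 20.7 RPKM at 18 h. At 20 h it was at 15.6, 25.6, 12.3 and 9.69 RPKM, 3 of the 4 libraries below all those of 18 h, but the change from 18 h was not called (log2 fold change -0.47, edgeR adjusted p = 0.276).

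Hn encodes phenylalanine hydroxylase, which makes tyrosine from phenylalanine with this cofactor. It stood at 25.8, 24.8, 28.2 and 40.8 RPKM at 14 h, against 5.73, 1.75, 2.31 and 4.54 RPKM at 12 h, an 8.02-fold difference without overlap (log2 fold change 3.00, standard error 0.48, edgeR adjusted p = 3.06e-06). At 16 h, the time point of its highest median, Hn was at 49.6, 57.6, 51.4 and 43.5 RPKM. With a replicate left out, its highest median lay at 16 to 20 h. In 18 against 16 h edgeR gave a log2 fold change of -0.03. Hn thus remained near its 16 h level, at 36.2, 48.4, 37.2 and 50.9 RPKM at 18 h. At 20 h it stood at 50.4, 51.0, 36.5 and 37.9 RPKM, with ranges that overlapped and a log2 fold change of 0.08 between the last time points. Within the 20 h libraries Hn was the most even member, its highest library 1.4-fold above its lowest.

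Pu and Hn also moved together earlier, on a far lower level, at steps in which the fit of all libraries called no other member. Pu was at 1.75, 0.952, 1.75 and 2.12 RPKM at 6 h, against 0.76, 0.362, 0.385 and 0.256 RPKM at 5 h. Hn was at 3.40, 1.17, 1.88 and 1.90 RPKM at 6 h, against 0.923, 0.737, 0.814 and 0.203 RPKM at 5 h. Neither gene's groups overlapped, and both were called higher (log2 fold changes 1.89 and 1.63, edgeR adjusted p = 0.00309 and 0.0383), in a step in which 2.85% of all genes tested were called higher. At 8 h both were called lower than at 6 h (log2 fold changes -1.5 and -1.53, edgeR adjusted p = 0.0139 and 0.0486), where 3.86% of all genes were. The Pu groups did not overlap there, but Hn in 8 h replicate 1, at 2.15 RPKM, lay within its 6 h range. The Hn call at 6 h was lost when any of the 4 replicates was left out at every time point (log2 fold changes 1.36 to 1.84), that of Hn at 8 h without replicate 2, 3 or 4 (-1.53, -1.16 and -1.37), and that of Pu at 8 h without replicate 2 or 3 (-1.61 and -1.12, adjusted p = 0.0562 and 0.145). Other scaling (DESeq2 size factors or library size only), no filter, or only the 8 samples also ended the Hn call at 8 h. The edgeR adjusted p was then 0.0549 to 0.126. That call was lost as well without either pair of 20 h libraries, 18 h replicate 4, or 3 h replicates 3 and 4, but DESeq2 made it.

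Pu was called higher again at 10 h, with 1.96, 2.83, 2.52 and 3.06 RPKM, against 0.916, 0.517, 0.131 and 0.897 RPKM at 8 h. This was a 3.96-fold difference without overlap (edgeR adjusted p = 0.000304), in a step in which 8.25% of all genes were called higher. Hn was not called there (log2 fold change 1.25, edgeR adjusted p = 0.0727), but was with DESeq2 (1.31, adjusted p = 0.0349), with the replicate number as a block in edgeR (1.45, adjusted p = 0.0245) and without replicate 1 (2.71, adjusted p = 0.000805). In 12 against 6 h, Pu and e were the members called higher, with log2 fold changes of 1.49 and 2.09 (edgeR adjusted p = 0.00104 and 0.00839), where 13.5% of all genes were, and DESeq2 called y as well (1.52, adjusted p = 0.0494).

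The gene ple encodes tyrosine hydroxylase, the rate-limiting enzyme of dopamine synthesis. At 14 h it was at 1.74, 0.712, 1.85 and 1.62 RPKM, against 0.43, 0.101, 0.301 and 0.333 RPKM at 12 h. These groups did not overlap, and the difference was 4.83-fold (log2 fold change 2.27, standard error 0.77, edgeR adjusted p = 0.0137). At 16 h ple was at 6.89, 3.89, 2.91 and 8.37 RPKM, each library above every 14 h library, but this step was not called (adjusted p = 0.095). With only the 8 libraries of 14 and 16 h in the fit, edgeR called it higher (log2 fold change 1.78, adjusted p = 0.0135). From here on the replicates differed widely. At 18 h the level was 1.51, 2.14, 5.32 and 20.7 RPKM, replicate 4 being 13.7-fold above replicate 1, and at 20 h it was 30.4, 17.1, 7.19 and 10.6 RPKM, highest in replicates 1 and 2. In 20 against 18 h ple was not called (log2 fold change 1.17, standard error 0.68, edgeR adjusted p = 0.148). Without 18 h replicate 4 it was called higher, with a log2 fold change of 2.37 and an adjusted p of 0.0034.

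Ddc encodes the decarboxylase that turns dopa into dopamine. It remained at or below 0.609 RPKM, and at no more than 26 counts, in all libraries of 1 to 18 h, and showed no step of its own at 14 h, with 0.279, 0.474, 0.417 and 0.521 RPKM at 14 h, against 0.425, 0.16, 0.0863 and 0.0799 RPKM at 12 h. Those groups overlapped and the change was not called (log2 fold change 1.13, edgeR adjusted p = 0.3). At 20 h Ddc was at 2.91, 0.397, 33.5 and 25.5 RPKM, against 0.185, 0.465, 0.609 and 0.441 RPKM at 18 h. Thus 20 h replicates 3 and 4 were far above all other libraries of the series, replicate 1 was in between, and replicate 2 was within the 18 h range. The difference was 41.6-fold (log2 fold change 5.38, standard error 0.90, edgeR adjusted p = 1.17e-05).

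The gene b encodes an aspartate decarboxylase that supplies beta-alanine. It was a scarce mRNA up to 18 h, at or below 0.7 RPKM, 23 counts, in every library. At 14 h b was at 0.261, 0.129, 0.628 and 0.31 RPKM, against 0.139, 0.0599, 0.0565 and 0 RPKM at 12 h. The 12 h libraries held only 0 to 4 counts of b each, around the 3 counts below which a sample cannot be told from zero. Although replicate 2 at 14 h lay below replicate 1 at 12 h, b was called higher (log2 fold change 2.24, standard error 0.77, edgeR adjusted p = 0.0153). At 20 h the level was 1.49, 0.873, 7.20 and 5.01 RPKM, against 0.212, 0.332, 0.223 and 0.70 RPKM at 18 h. Each 20 h library was above each 18 h library, with replicates 3 and 4 again the highest, and the difference was 11-fold (log2 fold change 3.47, standard error 0.61, edgeR adjusted p = 2.29e-05).

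The gene e encodes the synthase that couples beta-alanine to dopamine. At 14 h it was at 1.70, 1.87, 1.84 and 2.13 RPKM, against 0.662, 0.305, 0.269 and 0.877 RPKM at 12 h, a 3.49-fold difference without overlap (log2 fold change 1.80, standard error 0.59, edgeR adjusted p = 0.0101). It then changed little, with 2.79, 1.76, 2.63 and 2.06 RPKM at 16 h and 2.32, 1.20, 1.69 and 1.94 RPKM at 18 h. At 20 h e was at 1.89, 1.5, 5.11 and 3.61 RPKM, so that replicates 1 and 2 were within the 18 h range and replicates 3 and 4 above it. The step to 20 h was not called (log2 fold change 0.89, standard error 0.55, edgeR adjusted p = 0.182). It was called with 20 h replicates 1 and 2 left out (log2 fold change 1.31, adjusted p = 0.0397) and turned to -0.11 with replicates 3 and 4 left out.

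The gene y encodes a secreted protein needed for black melanin. It was detected at low levels throughout. Its levels lay between 0.234 and 1.78 RPKM from 3 to 12 h and between 0.39 and 1.89 RPKM from 14 to 18 h. No step in this interval was called with all libraries in the fit. With only the 8 libraries of 5 and 6 h, edgeR called y lower at 6 h (log2 fold change -1.06, adjusted p = 0.015). At 20 h y was at 4.06, 0.414, 49.0 and 47.2 RPKM, against 0.761, 1.89, 1.64 and 1.02 RPKM at 18 h. Replicate 3 was 119-fold above replicate 2, which lay below every 18 h library, and replicate 4 was close to replicate 3. With this spread y was still called higher (log2 fold change 4.43, standard error 0.71, edgeR adjusted p = 6.93e-06).

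The gene stw encodes the laccase that acts last, on catechols already exported to the cuticle. It was the only member with several RPKM in the young embryo. At 14 h stw was at 6.78, 3.53, 5.95 and 2.43 RPKM, against 2.04, 1.08, 1.21 and 1.09 RPKM at 12 h, a 3.33-fold difference without overlap (log2 fold change 1.74, standard error 0.51, edgeR adjusted p = 0.00456). At 20 h it was at 26.1, 25.1, 43.8 and 50.6 RPKM, against 3.65, 5.48, 10.2 and 34.0 RPKM at 18 h. Here 18 h replicate 4, the library in which ple was also high, was above 20 h replicates 1 and 2, while the other 18 h libraries were below all of 20 h. The difference was called (log2 fold change 1.59, standard error 0.49, edgeR adjusted p = 0.00685) and grew to 2.5 without 18 h replicate 4. Without replicate 3 of every time point it was not called (1.38, adjusted p = 0.0916).

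Thus 6 of the 8 members were called higher at 14 h than at 12 h, namely Pu, Hn, ple, b, e and stw, where 17.9% of all genes tested were called higher. The median log2 fold change of the 8 members was 2.02 and that of all genes 0.08. Without replicate 3 of every time point only Pu, Hn and stw were called, and ple, b and e had adjusted p of 0.0646, 0.164 and 0.0738 at log2 fold changes of 2.20, 1.72 and 1.64. The call of ple was also lost without replicate 2 (adjusted p = 0.0791) and that of b without replicate 4 (adjusted p = 0.0588). The same 6 genes were called higher in 18 against 12 h, with log2 fold changes of 1.77 for e to 4.64 for ple, where 23.4% of all genes were; Ddc and y had 1.19 and 0.22 there and were not called. Without 18 h replicate 4, ple fell to 3.18, stw to 2.07 and b to 1.78 on the log2 scale in this span, and b was no longer called (adjusted p = 0.0602). Between 12 and 14 h markers of neurons moved as well: 3 of the 5 neuron markers (elav, nSyb, Syt1, brp and Appl) were called higher, although their summed level was 385 to 875 CPM at 14 h and 660 to 823 CPM at 12 h. Both genes listed as dopaminergic markers, Vmat and DAT, were called higher, with a summed level of 11.2 to 29.9 CPM at 14 h and 2.69 to 6.91 CPM at 12 h. Vmat serves neurons of other monoamines as well, so the calls and sums of this list are not specific to dopaminergic neurons. None of the neuron and dopaminergic markers was at 0, and their part in the change of the members was not tested.

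At 20 h, 4 of the 8 members were called higher than at 18 h, namely Ddc, b, y and stw, where 17.2% of all genes tested were called higher. The median of the 8 log2 fold changes was 1.38, against -0.06 over all genes. The calls rest on 20 h replicates 3 and 4: without them edgeR called none of the members, with 3 members (ple, Ddc and b) at an unadjusted p under 0.05, and the log2 fold changes were 1.89 for Ddc, 1.63 for b, 0.68 for y and 0.90 for stw. Few genes of any kind were called in that setting, 121 of 11242 tested higher and 259 lower, so the absence of member calls is not particular to the members. With only the 8 libraries of the 2 time points in the fit, edgeR called none of the members and none of the 10060 genes tested, of which 4745 had an unadjusted p under 0.05, while Ddc, b, y and stw had an unadjusted p under 0.05 and Ddc, b and y shared an adjusted p of 0.0533; DESeq2 on all libraries called the 4. Leaving out 20 h replicates 1 and 2 instead gave log2 fold changes of 6.15 for Ddc, 4.10 for b and 5.21 for y.

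**Figure D3:**
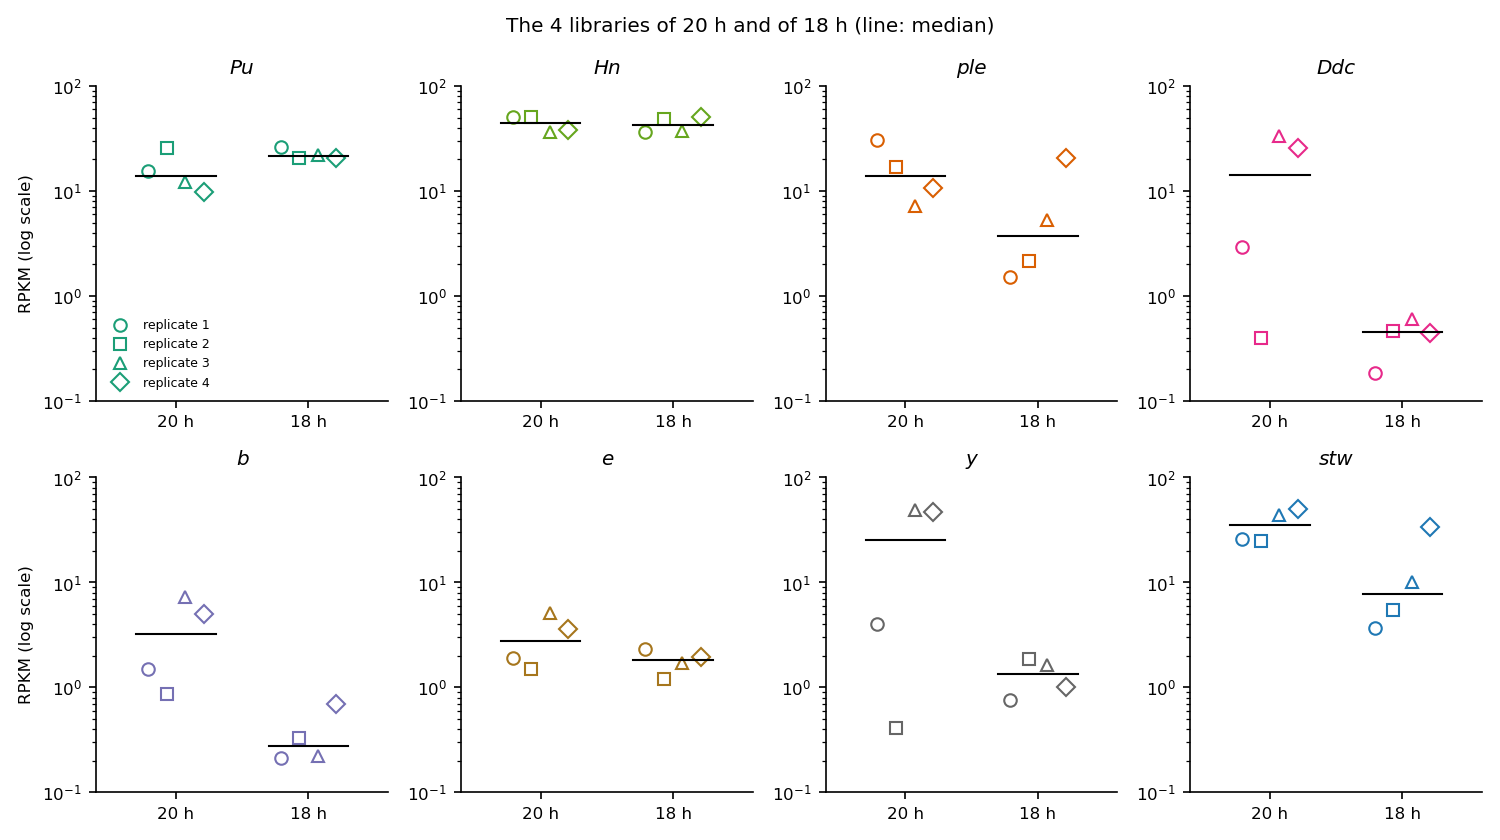
RPKM (y axis, logarithmic) of each gene in the 4 libraries of 20 h and, right of them, of 18 h; symbols give the replicate number and the line is the median. Ddc and y are near 25 to 50 RPKM in 20 h replicates 3 and 4 but at 0.397 and 0.414 RPKM in replicate 2, whereas ple is highest in 20 h replicate 1 and stw and ple are raised in 18 h replicate 4.

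Some other genes of the cuticle also differed between these pairs of 20 h replicates, while other lists did not follow them. The nuclear receptor ftz-f1, which acts after an ecdysone pulse, was at 51.8, 15.5, 91.3 and 90.0 RPKM in replicates 1 to 4, while the earlier-acting receptors Hr3, at 8.75, 14.3, 0.984 and 1.55 RPKM, and Eip75B, at 5.6, 11.2, 1.08 and 1.02 RPKM, had the opposite order. The summed level of 18 chitin and cuticle matrix genes was 6536, 4862, 11933 and 11176 CPM at 20 h, against 2182, 2179, 2735 and 5729 CPM at 18 h. In contrast, the sum of 15 regulators was 1889, 1820, 1593 and 1539 CPM in the 20 h replicates, lower in replicates 3 and 4, and that of the phenol and multicopper oxidases was 332, 382, 377 and 281 CPM, with no such pairs. In 18 h replicate 4, in which ple and stw were high, this sum was also the highest of its time point, as were those of the neuron and dopaminergic markers with 1032 and 89.3 CPM, but Ddc and y were at 0.441 and 1.02 RPKM there, within the range of the other 18 h libraries. Hr3 and Eip75B were chosen for mention after their values had been seen. The part of these differences between libraries in the results at 20 h was not tested.

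Cell type markers gave the following values beside the step to 20 h, at which 17.2% of all genes were called higher. Of the 5 neuron markers 3 were called higher, with a sum of 717 to 1114 CPM at 20 h and 508 to 1032 CPM at 18 h, and both dopaminergic markers were called higher, with 75.7 to 132 CPM at 20 h and 20.0 to 89.3 CPM at 18 h. Of the crystal cell markers, cells that carry prophenoloxidase, neither PPO2 nor lz was called, with 178 to 268 CPM at 20 h and 160 to 273 CPM at 18 h. Of the 3 plasmatocyte markers Hml was called higher, with sums of 123 to 222 CPM at 20 h and 105.5 to 249 CPM at 18 h. No marker was at 0 in the median of 20 h. The neuron sum was highest in 20 h replicate 1 and lowest in replicate 4, whereas the dopaminergic sum, at 103, 75.7, 132 and 102 CPM in replicates 1 to 4, was highest in replicate 3 and lowest in replicate 2, as were Ddc, b and y, and the part of these cells in the results was not tested.

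To place the members in order, the time was taken at which the median RPKM, interpolated between time points, crossed 50% of its highest median for the first time after its lowest time point between 2 and 6 h. Pu reached it at 13.05 h, e at 13.3 h and Hn at 13.9 h, while ple followed at 18.6 h, stw at 18.7 h, b at 18.9 h, y at 18.9 h and Ddc at 18.97 h. With a replicate left out, Pu moved between 12.9 and 13.2 h and Hn between 13.7 and 14.0 h, ranges that did not overlap, while e moved between 12.6 and 13.9 h and overlapped both. For ple the range was 15.4 to 18.9 h, so that its place between the early and the late genes was not fixed by these libraries, whereas Ddc, b, y and stw stayed between 18.3 and 18.98 h. For Ddc, b and y this narrow range follows in part from the method. Their medians were under 10% of the maximum at 18 h and highest at 20 h, so interpolation puts the 50% mark near the middle of that interval. Leaving out a replicate also always kept 20 h replicate 3 or 4. Single replicates gave a wider spread for y, with a standard deviation of 5.56 h. After the same low point, the 10% mark was passed by Pu at 10.3 h, e at 10.2 h, Hn at 12.1 h, stw at 13.3 h and ple at 13.6 h, and only at 18.0 to 18.1 h by b, y and Ddc, although stw had already been above its mark from 0 to 2 h.

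**Figure D4:**
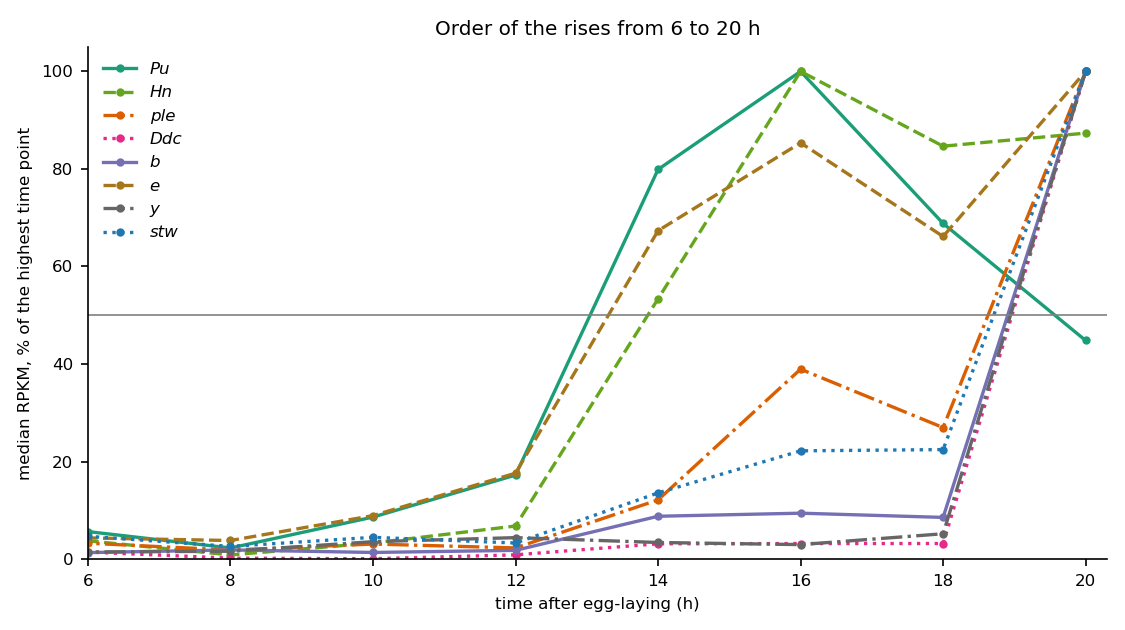
Median RPKM of each gene as a percentage of its highest time point (y axis) from 6 to 20 h after egg-laying (x axis); the grey line marks 50%. Pu, e and Hn cross it between 13.05 and 13.9 h and the other 5 genes between 18.6 and 18.97 h.

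At 20 h the levels per length ran from Hn, with a median of 44.1 RPKM, over stw with 34.9 and y with 25.6 RPKM to Ddc with 14.2, Pu with 13.9 and ple with 13.8 RPKM, and down to b with 3.25 and e with 2.75 RPKM. Neighbours in this order overlapped in their ranges in every case. The medians of y and Ddc fell in the gap between 20 h replicates 1 and 2 and replicates 3 and 4, with no library near them. In replicate 2 these were the lowest members, at 0.414 and 0.397 RPKM, whereas y was the highest member in replicate 3, at 49.0 RPKM. The order by medians therefore held in neither pair. At 18 h the order was Hn with 42.8, Pu with 21.4, stw with 7.84, ple with 3.73, e with 1.82, y with 1.33, Ddc with 0.453 and b with 0.278 RPKM. At that time the 4 Hn libraries were all above the 4 Pu libraries.

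The balance between consecutive steps of the route was examined within libraries, as log2 ratios of RPKM with 0.1 RPKM added. The ratio of Ddc to ple was 0.0987, 0.0289, 4.61 and 2.4 in 20 h replicates 1 to 4, against 0.177, 0.252, 0.131 and 0.026 at 18 h, so that decarboxylase mRNA exceeded hydroxylase mRNA in 20 h replicates 3 and 4 and in none of the other 6 libraries. The ratio of e to b was 1.25, 1.64, 0.714 and 0.725 at 20 h, against 7.77, 3.02, 5.54 and 2.56 at 18 h. This was the only ratio whose groups did not overlap, with a log2 difference of -2.07, but its exact permutation p of 0.0286, two-sided and the smallest possible with 4 against 4 libraries, became 0.257 after Benjamini-Hochberg adjustment over the 12 ratio tests. None of the other 11 exact permutation tests, of Ddc, Pu, Hn and stw to ple, e to b and y to e in 20 against 18 h and 18 against 14 h, reached an unadjusted p of 0.05. The ratio of y to e was 2.09, 0.322, 9.43 and 12.8 at 20 h, against 0.355, 1.52, 0.97 and 0.548 at 18 h, and the ranges overlapped (log2 difference 2.03, exact permutation p = 0.2, adjusted p = 0.392).

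In the first 3 h the members were mostly low, and stw was the exception. It was at 3.05, 5.17, 1.59 and 1.14 RPKM at 3 h, against 8.56, 7.61, 7.37 and 8.05 RPKM at 2 h, a fall without overlap (log2 fold change -1.62, standard error 0.50, edgeR adjusted p = 0.00434, 0.0613 without replicate 3). The 3 h libraries fell into pairs, with stw lower in replicates 3 and 4: without these 2 libraries it was not called (-0.88, adjusted p = 0.191), and without 3 h replicates 1 and 2 the log2 fold change was -2.58 (adjusted p = 0.000254). At 0 h it was at 4.92, 4.33, 5.79 and 4.48 RPKM, also in replicate 4, in which neuron marker mRNAs were scarce. Pu and ple were called lower as well at 3 h than at 2 h, with log2 fold changes of -1.09 and -2.03 (edgeR adjusted p = 0.0181 and 0.0273), where 20.1% of all genes tested were called lower. The Pu change was at a log2 fold change of -0.93 with DESeq2, short of the threshold, and -0.72 without replicate 3 (edgeR adjusted p = 0.145). The ple call was lost without replicate 1, 2 or 3 (adjusted p = 0.0798, 0.0741 and 0.108). Without 3 h replicates 3 and 4 no member was called at this step by edgeR, and none had an unadjusted p under 0.05.

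In 2 against 1 h, Hn, ple and y were called higher, where 24.5% of all genes were. Levels of y were 0.846, 0.761, 0.74 and 0.946 RPKM at 2 h, against 0.231, 0.183, 0.178 and 0.0614 RPKM at 1 h, 6.37-fold higher without overlap (edgeR adjusted p = 0.00251). This step shifted with the scaling: the median log2 fold change of all genes was 0.75 with TMM scaling and 0.36 without it, and the calls of all genes were 2712 higher and 1460 lower with TMM, against 1715 higher and 1906 lower without it. Relative to the median, Hn with 1.23 stood out little and was not called without TMM (0.83, adjusted p = 0.177), nor without replicate 1, 2 or 3 (adjusted p = 0.185, 0.0705 and 0.151), while ple with 2.30 and y with 2.67 were called in both. Without replicate 3, ple was not called (2.08, adjusted p = 0.0636). The same held without 20 h replicates 1 and 2 or either pair of 3 h libraries (edgeR adjusted p = 0.0512 to 0.0695), where y was still called. The scaling thus also depended on libraries of other time points: without 20 h replicates 1 and 2, the median over all genes was 0.18 with TMM.

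In 1 against 0 h, ple and y were called lower, with log2 fold changes of -2.19 and -2.15 (edgeR adjusted p = 0.0473 and 0.0428), where 12.1% of all genes were called lower. These values rest on 0 h replicates 1 to 3, which held more neuron marker mRNA than replicate 4. The level of ple at 0 h was 1.07, 0.865 and 1.17 RPKM in replicates 1 to 3 but 0 in replicate 4, and y was at 0.669, 0.952, 1.45 and 0.0819 RPKM. Of the other members, Ddc was at 0.528, 1.24, 1.39 and 0.0199 RPKM and Hn at 2.44, 1.67, 1.79 and 0.421 RPKM, with the same library the lowest. With replicate 4 as the only 0 h library, neither gene was called lower (edgeR adjusted p = 0.334 for ple and 0.808 for y), and as that library held 0 counts of ple and 3 of y, no direction can be read there. The calls were also lost without replicate 1, 2 or 3, and that of y without replicate 4 (adjusted p = 0.0606 to 0.358).

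Genes with a course like that of each member were sought by Pearson correlation of log2(TMM-scaled CPM + 1) over the 14 time point means, among 11057 other genes. This is a description over 14 points that share libraries, in which any gene with a late rise scores highly. Nearest to Hn was Rcd6 (r = 0.999), to e CG13559 (r = 0.996), to b CG15153 (r = 0.996) and to ple CG12723 (r = 0.995). For Pu the nearest was CG7860 (r = 0.992), for Ddc TwdlQ of the Tweedle family of cuticle proteins (r = 0.987), and for stw Cyp6a13 (r = 0.979). The lowest likeness was found for y, whose nearest genes were Elk (r = 0.947), zye, which encodes a zona pellucida domain protein (r = 0.941), and CG15020 (r = 0.938). Next in rank were lncRNA:CR43958 and GluRIIB for Pu, CG10132 and CG4945 for Hn, CG13196 and CG5639 for ple, CG13675 and CG13679 for Ddc, CG15024 and CG1208 for b, GC and CG10713 for e, and Dh44-R2 and CG4210 for stw. Among the members themselves, r was 0.98 for Hn with Pu, for Hn with e and for Ddc with b, but 0.34 for Pu with y.

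Other genes of the route were taken from lists, which were compiled with earlier results of these data known, and their counts stand beside 36.2% of all genes called higher in 20 against 6 h and 23.4% in 18 against 12 h. Of 8 genes listed under tetrahydrobiopterin and pteridine synthesis, 1 was called higher and 1 lower in 20 against 6 h, and the median log2 fold change was 0.62, against 0.05 over all genes. This list is wider than the pathway of Pu, as it also holds genes of the molybdenum cofactor. The most abundant, pr (purple, 6-pyruvoyl-tetrahydropterin synthase) and cin (cinnamon, molybdenum cofactor synthesis), had medians of 39.3 and 24.0 RPKM at 20 h, against 68.6 and 56.2 RPKM at 6 h, and only cin was called lower (log2 fold change -1.32, edgeR adjusted p = 6.02e-15). Pu was called higher at 14 h, whereas the genes of this wider list had summed levels of 241 to 329.5 CPM at 14 h and 236 to 280 CPM at 12 h. Pcd was the only one of them called at that step (log2 fold change 1.34, chosen for mention after its value was seen).

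All 12 genes of aromatic amino acid use and biogenic amines were called higher in 20 against 6 h, with a median of 3.68, and 11 of them in 18 against 12 h. The paralog of Ddc, amd, which acts on cuticular catechols, was at 134, 69.4, 182 and 161 RPKM in the 20 h replicates, above Ddc in each of them, and rose already in 18 against 12 h (log2 fold change 2.09, standard error 0.44, edgeR adjusted p = 9.29e-05), where Ddc was not called. Faa, which encodes fumarylacetoacetase of tyrosine breakdown, had its highest median at 16 h, 115.45 RPKM, like Pu and, with all replicates, Hn. Vmat, the vesicular monoamine transporter, showed the largest called change of the list, 5.15 on the log2 scale (standard error 0.63, adjusted p = 5.93e-10).

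For the conjugation and storage of dopamine and beta-alanine, 7 of the 9 genes listed were tested, of which 6 were called higher and 1 lower in 20 against 6 h, with a median of 2.64. Those called higher in 18 against 12 h were t (tan, the hydrolase that reverses the e reaction), AANATL2 and AANATL3, with log2 fold changes of 3.04, 1.89 and 2.70, of which t and AANATL3 were chosen for mention after their values were seen. Like e, t was called higher at 14 h (log2 fold change 2.76), and it had medians of 3.35 RPKM at 20 h and 7.46 RPKM at 18 h. Pyrimidine breakdown is the other source of beta-alanine beside b, and its genes CRMP and pyd3 were abundant before b was, at 38.7 and 28.7 RPKM at 12 h. AANATL2 was at 1.91, 1.61, 8.71 and 5.48 RPKM in the 20 h replicates, the same order of pairs as b.

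Of the yellow family 10 of 13 genes were tested, of which 8 were called higher and 2 lower in 20 against 6 h, with a median of 4.33. In contrast to y, 7 of the 10 were already called higher in 18 against 12 h and 1 was called lower. The most abundant was yellow-e3, at 1.86, 10.1, 0.40 and 0.158 RPKM in the 20 h replicates and a median of 119 RPKM at 12 h, followed by yellow-c with 67.3 RPKM at 20 h. The largest called change was that of yellow-d2 (log2 fold change 6.53, standard error 0.79, edgeR adjusted p = 4.34e-10), which was at 3.47, 2.22, 13.3 and 12.1 RPKM in the 20 h replicates.

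Of 8 phenol oxidases, multicopper oxidases and their activating proteases tested, 6 were called higher and 1 lower in 20 against 6 h, with a median of 2.80. Mco1, a relative of stw, had 2.37, 1.34, 8.09 and 6.41 RPKM at 20 h and was called higher (log2 fold change 5.09, edgeR adjusted p = 9.43e-09). PPO2, prophenoloxidase of crystal cells, was the most abundant, with its highest median of 139 RPKM at 16 h, followed by the protease MP1 with 65.3 RPKM at 16 h; PPO2 was called in 20 against 6 h (log2 fold change 2.52) and MP1 was not (0.52). Of 15 regulators of cuticle and tanning, 7 were called higher and 2 lower, with a median of 0.96, where 36.2% of all genes were called higher. These include ftz-f1, whose log2 fold change was 5.40 (standard error 0.62, adjusted p = 1.26e-10), and msn, a kinase, with 57.4 RPKM at 20 h, against 42.9 RPKM at 6 h, and no call.

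Of 18 chitin and cuticle matrix genes, 17 were called higher in 20 against 6 h and none lower, with a median of 4.13, and 11 were called higher in 18 against 12 h. The most abundant were TwdlF and Gasp, at 1419 and 748 RPKM in the median of 20 h, and the largest called change was that of TwdlC (log2 fold change 7.26, standard error 1.36, edgeR adjusted p = 4.99e-06). TwdlC was at 50.5, 5.85, 313 and 301 RPKM in the 20 h replicates, which again is the order of Ddc and y. In 20 against 6 h neuron markers (4 of 5), dopaminergic markers (2 of 2), crystal cell markers (1 of 2) and plasmatocyte markers (3 of 3) were called higher too. Their most abundant genes were elav and Appl, PPO2, Pxn and NimC1, of which elav alone was not called (log2 fold change -0.26), and the part of these cell types in the rise of the 8 members was not tested.

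**Figure D5:**
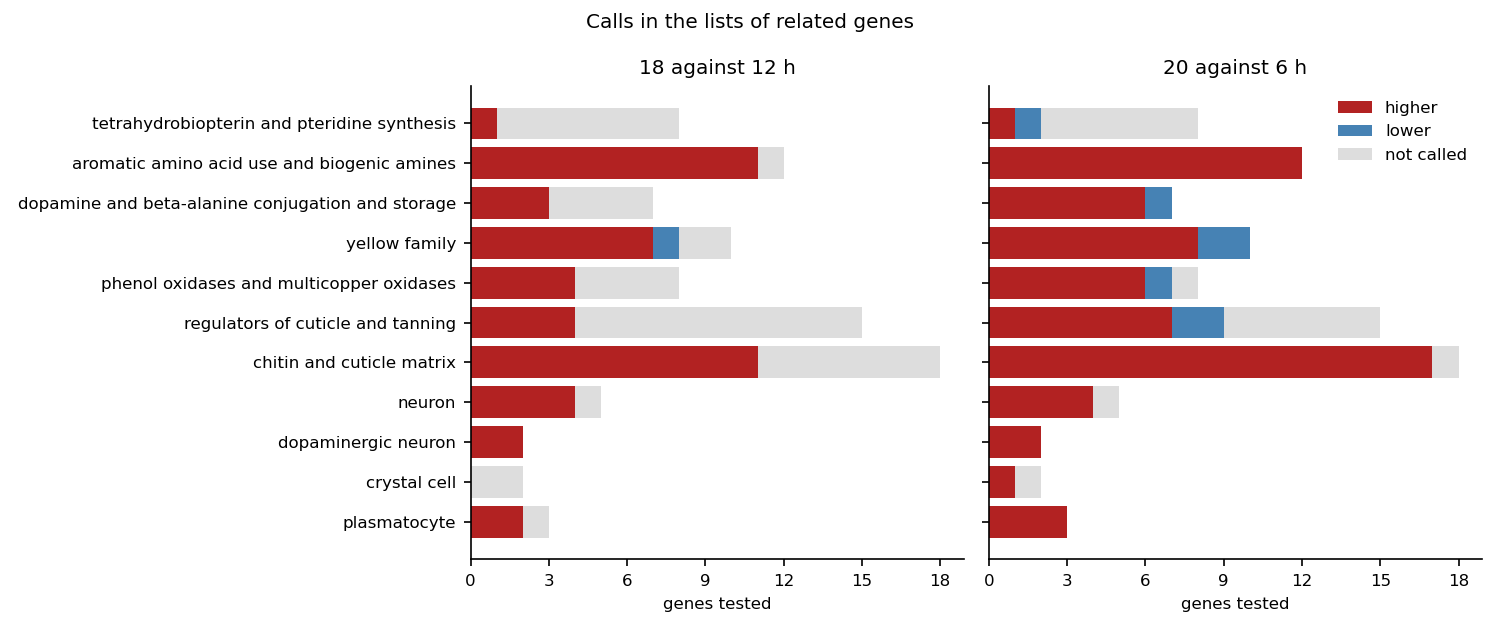
Number of genes (x axis) of each list of related genes and cell type markers (rows) that were called higher (red), lower (blue) or not called (grey) in 18 against 12 h (left) and 20 against 6 h (right). Aromatic amino acid and amine genes were called higher in 11 and 12 of 12 cases, whereas of the tetrahydrobiopterin and pteridine genes 1 of 8 was higher in each span.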

How the data were processed

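The authors sequenced polyA RNA of pooled whole embryos (TruSeq stranded kit, single reads of 51 cycles), made reads with bcl2fastq 1.8.4, aligned them with STAR 2.4.0h to BDGP6 with Ensembl 79 genes, allowing 2 mismatches, used SAMtools 1.2, and deposited counts per gene from htseq-count (HTSeq 0.6.1p1, union mode); the strand setting is not given in the sources used here. Lines naming no gene, 3.90% to 10.5% of each file, were left out. RPKM was computed with Ensembl 115 exon lengths.

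Changes were tested in edgeR 4.0.16 (R 4.3.3) with TMM, filterByExpr, all 56 samples and a mean per time point. The standard errors given for edgeR were derived from the test. Each is the absolute log2 fold change divided by the square root of the quasi-likelihood F statistic. On simulated counts for 20 against 18 h (10869 genes), 97.5% of 200 genes changed 4-fold were found. The simulated replicates were independent draws without the pairs seen among the 20 h libraries, and very scarce genes were not changed. This share therefore does not measure how many changes are found in the real 20 h libraries. With only the 8 samples the simulation gave 97%, whereas edgeR called no gene in the real data. Ratios between members were compared by exact permutation. Labels call the 4 replicates biological, but nothing names separate cultures, so p-values measure the spread between these samples. Alternatives were DESeq2 1.42.0, other scaling and filters, a replicate block, and left-out libraries. Of each related list, the 2 genes with the highest median RPKM and the 1 with the largest called change in 20 against 6 h were named, and for each member the 3 genes most alike. Members and lists were chosen with earlier results of these data known. Promoter and protein sequences were not analysed here.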

Additional observations from a re-analysis of the deposited data

Results flagged for a closer look

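Of 112 groups of 4 libraries, 8 members at 14 time points, 7 held a library whose gap to its nearest neighbour was above the 95% critical value of Dixon's test for 4 samples, and chance gives about 1 in 20. Pu at 14 h was at 45.03 RPKM in replicate 4, the others being at 24.1 to 25.2 RPKM. For stw at 12 h, replicate 1 was at 2.039 RPKM and the others at 1.08 to 1.21 RPKM, and for ple at 6 h, replicate 1 was at 1.2 RPKM and the others at 0.393 to 0.501 RPKM.

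The other 4 rest on few counts. Ddc was at 0.4858 RPKM, 26 counts, in 1 h replicate 1 and at 0.4445 RPKM, 19 counts, in 8 h replicate 2, and b was at 0.229 RPKM, 9 counts, in 6 h replicate 4 and at 0.3819 RPKM, 13 counts, in 16 h replicate 1.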

How the results depend on the processing

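Leaving out a replicate gave 9 to 22 calls of members over the 13 steps, against 23 with all libraries (15 without replicate 2, 9 without replicate 3), and 14 were left without 20 h replicates 3 and 4 and 15 without 3 h replicates 3 and 4. At 14 h, 3 to 6 members were then called higher. Without replicate 3, calls of all genes fell too at each step and in each direction in which members were called. In 20 against 18 h, 1099 genes were then called higher, against 1900 with all libraries. In 1 against 0 h, 163 were called lower, against 1337. At 20 h against 18 h no member was called with only the 8 samples or without 20 h replicates 3 and 4. In the latter setting only 121 of all 11242 genes tested were called higher. The 50% time of ple ranged from 15.4 h (without replicate 2) to 18.9 h and that of Ddc from 18.8 to 18.98 h. The log2 ratio difference of e to b in 18 against 14 h ranged from -0.526 to 0.0359, and that of stw to ple in 20 against 18 h from -0.184 to 0.752, so both changed sign. With replicate 4 as the only 0 h library, the fitted values of ple and y in 1 against 0 h were 6.34 and 1.16 (edgeR adjusted p = 0.334 and 0.808), which with 0 and 3 counts there measure no size or direction. Hn in 20 against 18 h ranged from -0.0217 (without replicate 1) to 0.15 with a replicate left out and was -0.17 without 20 h replicates 1 and 2 and -0.0236 without 3 h replicates 3 and 4, y in 18 against 12 h was -0.11 without either of these pairs, and e in 20 against 18 h -0.11 without 20 h replicates 3 and 4. Called pteridine genes numbered 4 in 20 against 6 h without a filter (2 with it) and 2 in 18 against 12 h with DESeq2 (1 with edgeR), and plasmatocyte markers 1 in 18 against 12 h without a filter (2 with it). The cause of these shifts was not tested.

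The replicate block ended 1 call of members, y in 1 against 0 h (-2.09, edgeR adjusted p = 0.0553), and added 1, Hn in 10 against 8 h (1.45, adjusted p = 0.0245). Same-numbered samples did not deviate together (mean r 0.00888, against -0.00276 for other numbers), so the numbers are not taken as pairs. Depth limits Ddc, b and e most. From 1 to 18 h Ddc had at most 26 counts and b at most 23 in any library, and e had few counts before 12 h.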
